A study of Mus musculus with 2 samples.

Results

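The TAM receptors and apoptotic-cell bridging molecules are taken here as 7 genes: the receptor tyrosine kinases Mertk, Axl and Tyro3, their ligands Gas6 and Pros1, the secreted bridging protein Mfge8 and the scavenger receptor Stab1. They were chosen by name, not by their values, and all 7 were found among the 27998 genes of the count matrices. Their counts were summed over the cells of each cell type label, with the receptors read first in the monocyte and macrophage labels and the bridging ligands in the stromal and myeloid labels.

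A dying cell exposes phosphatidylserine on its outer membrane leaflet, and phagocytes clear the cell by binding that lipid, a process called efferocytosis. MERTK, AXL and TYRO3 do not touch the lipid themselves: GAS6 and protein S, the product of Pros1, hold phosphatidylserine with a vitamin K-dependent domain and the receptor with their far end. MFG-E8, the product of Mfge8, instead links phosphatidylserine to integrins, and stabilin-1, the product of Stab1, binds phosphatidylserine directly. In injured skeletal muscle, macrophages take up necrotic fibre debris and dying neutrophils before the tissue is rebuilt.

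The data were single-cell transcriptomes of tibialis anterior muscle from C57Bl/6 mice injured with the myotoxin notexin, 1 library at day 2 and 1 library at day 7 after injury, with no uninjured library used here. The sample labels gave females aged 7 months in both groups. The deposited cell annotation instead gave 1 male mouse per library, aged 4 months at day 2 and 7 months at day 7. The counts of 4 Y-linked genes were 6575 at day 2 and 4856 at day 7, against 5 and 1 for Xist. Age, mouse, library and day therefore cannot be told apart, and no difference between the days could be tested against the spread between animals.

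The filtered matrices held 4836 and 4889 barcodes, with 41123913 counts in the day 2 library and 32356088 in the day 7 library, and 4 barcode sequences occurred in both libraries. The cells kept for the levels below were 3208 and 3221, with a median of 9010 and 6557 counts, and 3178 and 3196 of them carried a label. A level is the sum of a gene's counts over the cells of a label, per 1000000 counts of those cells (CPM). Intervals are 95% and cover counting error only. The counts are of 3′ transcript ends, so levels are set side by side between cells and days for 1 gene, not between genes.

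The annotation split the myeloid cells into M1 Macro., M2 Macro. (Cx3cr1_lo), M2 Macro. (Cx3cr1_hi), and Inflammatory, Patrolling and Cxcl10+ monocytes. The macrophage labels together held 792 cells at day 2 and 492 at day 7, and the summed level of 19 macrophage markers in them was 30261 and 100169 CPM, with all 19 detected at both days. Several names went against their leading genes. The 10 leading genes of the Cx3cr1_hi label at day 2 held 4 of the dendritic cell list, among them H2-Eb1, H2-Aa and H2-Ab1, and none of the macrophage list. The leading genes of the Patrolling label held Spp1 and Gpnmb, both on the macrophage list, and no gene of the monocyte list at either day. The T Cells of day 2, 50 in number, led with Il4, Mcpt8 and Fcer1a, genes of basophils. The Cxcl10+ label led with interferon-induced genes, 3 of them on the monocyte list at day 2 and none at day 7. The members past 2-fold over all macrophages and over all monocytes are also given without the Cx3cr1_hi and the Patrolling label.

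Free RNA was measured in barcodes with 1 to 100 counts. Its level from day 2 to day 7 was 6.88 and 13.7 CPM for Mertk, 35.7 and 109.7 for Axl, 0.655 and 3.62 for Tyro3, and 18.7 and 71.3 for Gas6. It was 28.8 and 49.3 CPM for Pros1, 29.1 and 90.6 for Mfge8, and 76.0 and 45.7 for Stab1. A level below these values may hold little beside free RNA, which was not removed from the counts.

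The upstream sequences of the 3 genes with the largest day 7 to day 2 ratios in the macrophage labels are printed to show what lies before their start sites; the choice was made after their values were seen. Each is the 250 bases before the RefSeq start on the GRCm38.p6 build, 5′ to 3′ on the strand of the gene, with GC boxes (GGGCGG or its complement CCGCCC) in capitals.
Mertk, chr2:128698665-128698914, plus strand: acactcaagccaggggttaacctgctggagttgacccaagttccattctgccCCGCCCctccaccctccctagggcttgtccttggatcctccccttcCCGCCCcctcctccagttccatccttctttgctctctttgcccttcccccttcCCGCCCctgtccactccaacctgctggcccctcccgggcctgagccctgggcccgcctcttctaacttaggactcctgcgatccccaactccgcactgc
Axl, chr7:25788734-25788983, minus strand: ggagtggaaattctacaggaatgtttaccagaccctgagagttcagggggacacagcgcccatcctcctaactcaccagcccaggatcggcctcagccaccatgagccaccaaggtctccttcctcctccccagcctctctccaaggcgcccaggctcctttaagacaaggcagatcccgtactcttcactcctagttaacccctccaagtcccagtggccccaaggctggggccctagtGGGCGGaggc
Mfge8, chr7:79149061-79149310, minus strand: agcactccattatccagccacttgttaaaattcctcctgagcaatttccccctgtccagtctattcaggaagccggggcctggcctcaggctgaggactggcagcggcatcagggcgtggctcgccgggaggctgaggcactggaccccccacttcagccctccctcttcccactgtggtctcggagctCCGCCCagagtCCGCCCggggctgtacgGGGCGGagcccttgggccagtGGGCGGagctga
The GC box was found 3 times before Mertk, once before Axl and 4 times before Mfge8. Of the other members, Tyro3 held 3, Gas6 4, Pros1 5 and Stab1 none, and 32.7% of 32851 mouse upstream sequences of this length held at least 1. None of the 7 held the AP-1 motif TGANTCA, the interferon element (GAAA, then 2 bases of any kind, then GAAA) or the Maf core TGCTGAC on either strand, against 6.75%, 2.98% and 3.81% of the 32851. A match is a description of letters in this window and nothing more.

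In macrophages, Mertk, Axl and Mfge8 were each more than 2-fold higher at day 7 than at day 2, and Stab1 was more than 2-fold lower. These were 3 members higher and 1 lower of the 6 with 50 or more counts, while 28.3% of the 9354 genes counted this way lay past 2-fold, 14.3% higher and 13.9% lower. In the monocyte labels 4 of 6 were higher (Mertk, Axl, Gas6 and Mfge8) and 1, Stab1, was lower, against 26.6% of 8007 genes. Of these, Gas6 lay under the free RNA at both days, at 13.9 and 49.3 CPM, and had under 50 counts after thinning. Without the Patrolling label only 4 members had 50 counts, and 2 of them, Mertk and Axl, lay past 2-fold, with log2 ratios of 2.18 and 4.21, while Stab1 was at -0.81 and, on under 50 counts each, Mfge8 was at 0.13 and Gas6 at 3.13. Leaving out the Cx3cr1_hi label kept the same 4 of 6 in the macrophages, with log2 ratios of 1.82 for Mertk, 4.94 for Axl, 4.05 for Mfge8 and -1.04 for Stab1, and of 0.08 for Gas6, which lay at -0.11 with it. Leaving out every cell with 5 or more counts of another lineage's markers left 330 and 119 macrophages, where the log2 ratio was 1.87 for Mertk, 5.26 for Axl, 2.06 for Mfge8 and -0.24 for Stab1. It left 255 and 75 monocytes, where it was 2.80 for Mertk, 4.21 for Axl, 1.16 for Mfge8 and -0.31 for Stab1, and there Axl alone of these 4 was both past 2-fold and had 50 counts.

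The counts differed from label to label. In M1 cells 3 members were higher and 1 lower of 6, against 13.2% and 14.9% of genes, and in Cx3cr1_lo cells 3 higher and none lower of 5, against 9.77% and 19.4%. In Cx3cr1_hi cells 2 were higher of 3, against 11.6% higher and 16.6% lower. In Inflammatory monocytes 1 was higher and 1 lower of 3, against 8.71% and 19%. In Patrolling monocytes 5 were higher and 1 lower, all 6 that could be counted, against 10.9% and 15.8% (26.7% in either direction). In Cxcl10+ monocytes 1 was higher of 2, against 10.6% higher and 21.9% lower (32.5% in either direction). Of the FAP labels, Pro-remodeling cells had 5 higher and none lower of 7, against 22.9% and 14.2%, Adipogenic cells 2 higher and 1 lower of 4, against 18.6% and 15.3%, and Stem cells 2 higher and none lower of 4, against 14.3% and 23.7%. In Endothelial (Capillary) cells 1 was higher and 1 lower of 5, against 10.8% and 10.6%, and in Endothelial (Stem) cells 2 were higher of 5, against 11.4% higher and 13.1% lower. The T cells had 1 member with 50 counts, Mfge8, inside 2-fold, and 5 of the 293 cells of day 7 held 70 of its 124 counts. Those 5 cells held macrophage markers at 15193 CPM, endothelial markers at 6731 and T and NK markers at 11.8, so nothing is read from this value for T cells.

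**Figure D1:**
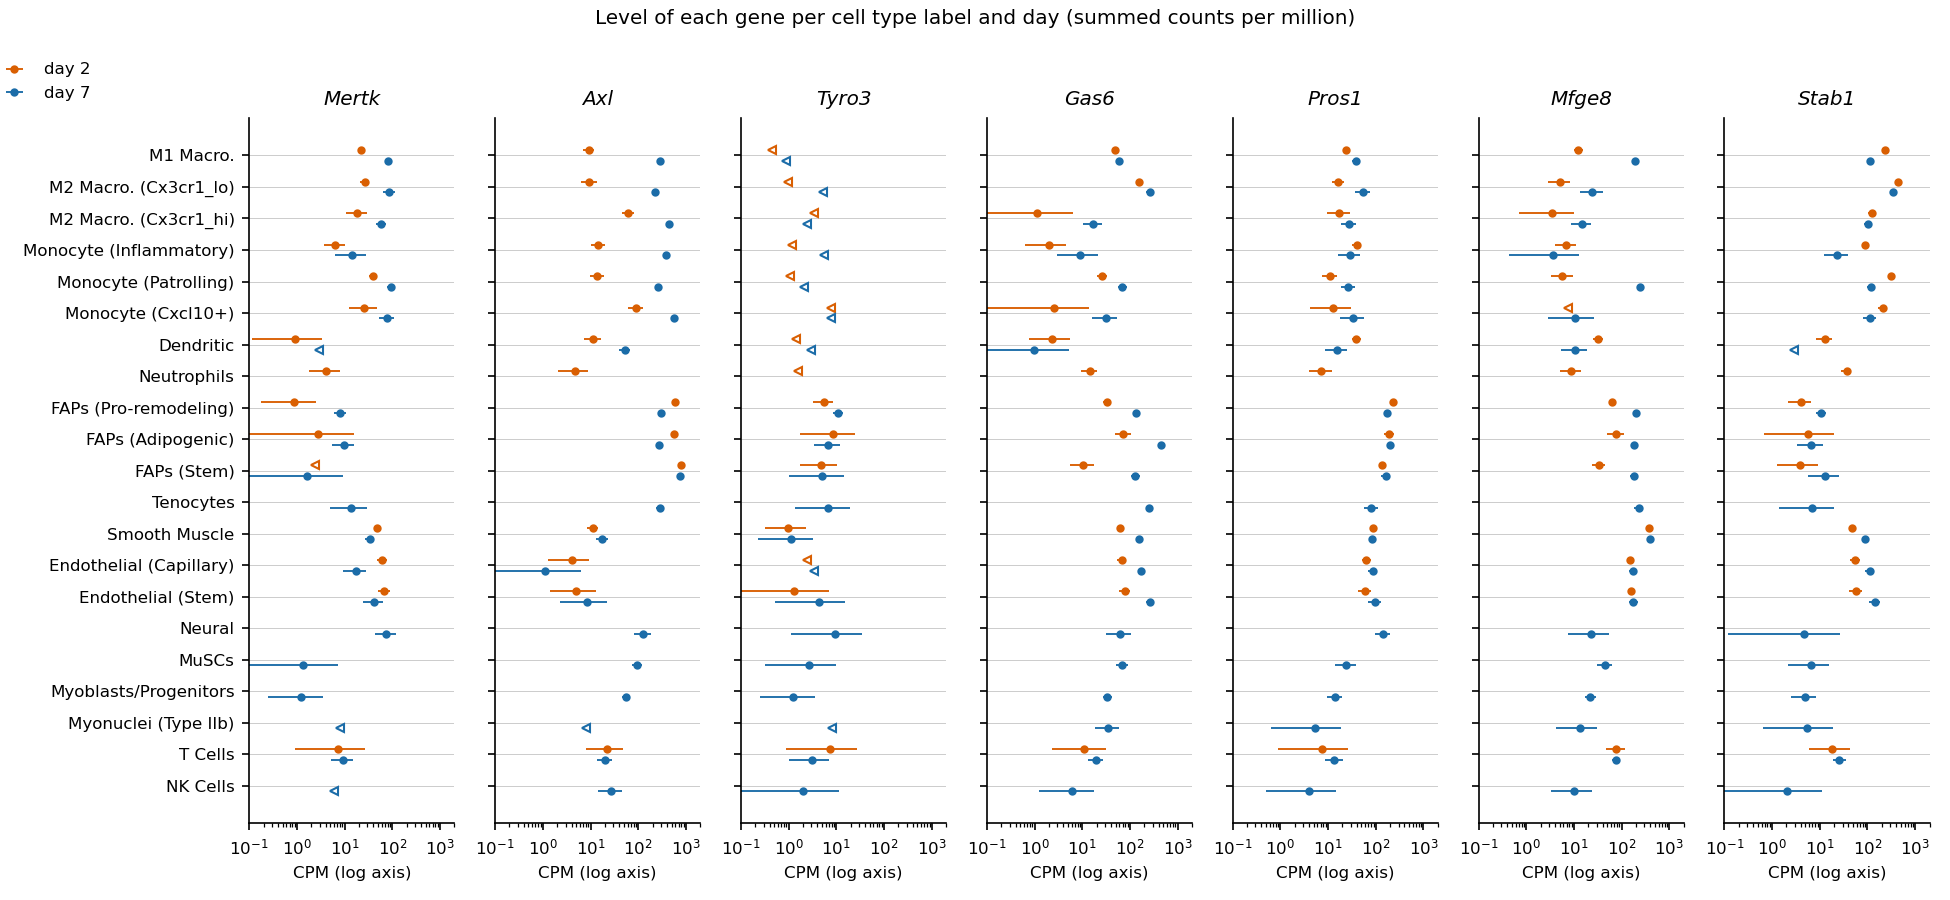
Level of each of the 7 genes in every label with 30 or more kept cells, in CPM on a log axis, at day 2 (orange) and day 7 (blue). Points are the summed level, bars the 95% Poisson interval, and open triangles mark the level of 3 counts where none was counted. In the myeloid rows the day 7 points of Axl lie to the right of the day 2 points, while in the fibro-adipogenic rows they lie at or to the left of them.

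Mertk, annotated at chromosome 2:128698956-128802894 on the plus strand of GRCm38, encodes the receptor through which resident and wound macrophages take up dying cells. Its level in the macrophage labels was 23.2 CPM (20.4 to 26.2) from 250 counts at day 2 and 77.2 CPM (69.8 to 85.1) from 397 counts at day 7. The log2 ratio was 1.74 (1.504 to 1.97). The intervals of the days did not meet in any of M1, Cx3cr1_lo or Cx3cr1_hi macrophages. M1 macrophages went from 22.2 to 82.9 CPM, a log2 ratio of 1.90 (1.61 to 2.20). Cx3cr1_lo macrophages went from 26.6 to 86.5 CPM, with 1.70 (1.16 to 2.22). Cx3cr1_hi macrophages went from 18.4 to 57.1 CPM, with 1.63 (0.83 to 2.51). At day 7 the level of Cx3cr1_hi cells was the lowest of the 3, with M1 cells 1.45-fold (1.11 to 1.92) and Cx3cr1_lo cells 1.52-fold (1.03 to 2.21) above it.

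The monocytes did not share 1 Mertk level. Patrolling cells held 39.6 CPM at day 2 and 92.9 at day 7, while Inflammatory cells held 6.35 and 14.4, too few counts for a ratio between the days. Patrolling cells were 6.23-fold (3.67 to 11.3) above Inflammatory cells at day 2 and 6.46-fold (3.19 to 15.3) above them at day 7, where 15.7% and 12.7% of genes differed by more than 2-fold between these labels. The Inflammatory level at day 2 was below the free RNA of that library.

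The 3 highest Mertk levels at day 2 were those of vascular labels. Endothelial (Stem) held 67.2 CPM, Endothelial (Capillary) 60.7 and Smooth Muscle 46.6, neighbours that did not differ beyond counting error, and Smooth Muscle did not differ beyond it from Patrolling monocytes, the next label. At day 7 the order was led by Patrolling monocytes at 92.9 CPM, then Cx3cr1_lo macrophages at 86.5, M1 macrophages at 82.9, Cxcl10+ monocytes at 77.7 and Neural cells at 74.6, with no neighbours told apart. The endothelial labels together held 59.0 CPM from 143 counts at day 2 and 24.4 CPM from 41 counts at day 7, for a log2 ratio of -1.27 (-1.81 to -0.76). The summed macrophage markers in those labels went from 553 to 2021 CPM (17 of 19 detected at day 7), against 30261 and 100169 CPM in the macrophages. These markers were thus higher at day 7 in the macrophages too, and their part in this ratio was not tested. In the 46 and 13 endothelial cells free of 5 or more counts of another lineage the log2 ratio was 0.47. In smooth muscle Mertk was 46.6 and 33.6 CPM, inside 2-fold. In the 14 and 18 cells free of 5 or more counts of another lineage's short marker list its log2 ratio was 1.28. The macrophage share of all Mertk counts was 31.6% at day 2 and 49.3% at day 7, and the smooth muscle share 30.1% and 11.3%, which also reflects how many cells of each kind were caught.

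Axl (chromosome 7:25757273-25788705, minus strand) encodes the family member that GAS6 binds most tightly. In the macrophage labels it stood at 13.4 CPM (11.3 to 15.8) from 145 counts at day 2 and at 321 CPM (306 to 337) from 1653 counts at day 7. The log2 ratio of 4.58 (4.33 to 4.83) was the largest of the members in this class. The day 2 level lay below that day's free RNA and the day 7 level above it. The days lay far apart in every macrophage label, and least so in Cx3cr1_hi. M1 macrophages held 9.16 and 293 CPM, a log2 ratio of 5.0 (4.63 to 5.40). Cx3cr1_lo macrophages held 9.51 and 228 CPM, a log2 ratio of 4.59 (4.005 to 5.21). Cx3cr1_hi macrophages began higher, at 61.1 CPM, and reached 441, a log2 ratio of 2.85 (2.44 to 3.29). Without them the macrophage log2 ratio was 4.94.

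The same held in the monocytes. Axl was 19.1 CPM at day 2 and 337 at day 7 over the monocyte labels, a log2 ratio of 4.14 (3.85 to 4.44). Inflammatory cells went from 14.3 to 374 CPM and Patrolling cells from 13.7 to 261. These day 2 levels, and that of the monocyte labels together, lay below that day's free RNA of 35.7 CPM. Cxcl10+ cells stood apart at day 2, with 88.6 CPM, 6.203-fold above the Inflammatory cells, and were 1.51-fold above them at day 7, when they held 565 CPM. Dendritic cells held 11.2 and 52.0 CPM, a log2 ratio of 2.22 (1.498 to 2.98). In M1 against Cx3cr1_hi macrophages the gap closed likewise, from 6.67-fold (4.53 to 9.78) higher in Cx3cr1_hi at day 2 to 1.504-fold (1.35 to 1.67) at day 7.

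Counted by cell, Axl was found in 10.7% of macrophages at day 2 and 83.1% at day 7, at a median depth of 12905 and 8816 counts. With every cell thinned to 2000 counts the shares were 2.66% and 43.9%. In T and NK cells, taken as the background, 5.69% of 404 cells had a count at day 7, at a median depth of 3696, and 2.58% did so after thinning. At day 2 none of 66 thinned T and NK cells had a count, which allows a share with a count of up to 5.44%. The day 2 share of macrophages lay under that limit, and the day 7 share lay above the T and NK share of its own library. Mertk, thinned, was found in 4.05% of macrophages at day 2 and 14.8% at day 7, against 1.52% and 0.573% of T and NK cells. Both receptors together were found in 2 of 790 thinned macrophages at day 2 and in 37 of 488 at day 7. At day 7, Axl was found in 51.4% (39.3 to 63.4) of the macrophages with a Mertk count and 42.5% (37.7 to 47.5) of those without, so at this depth no tie between the receptors within cells was detectable.

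**Figure D2:**
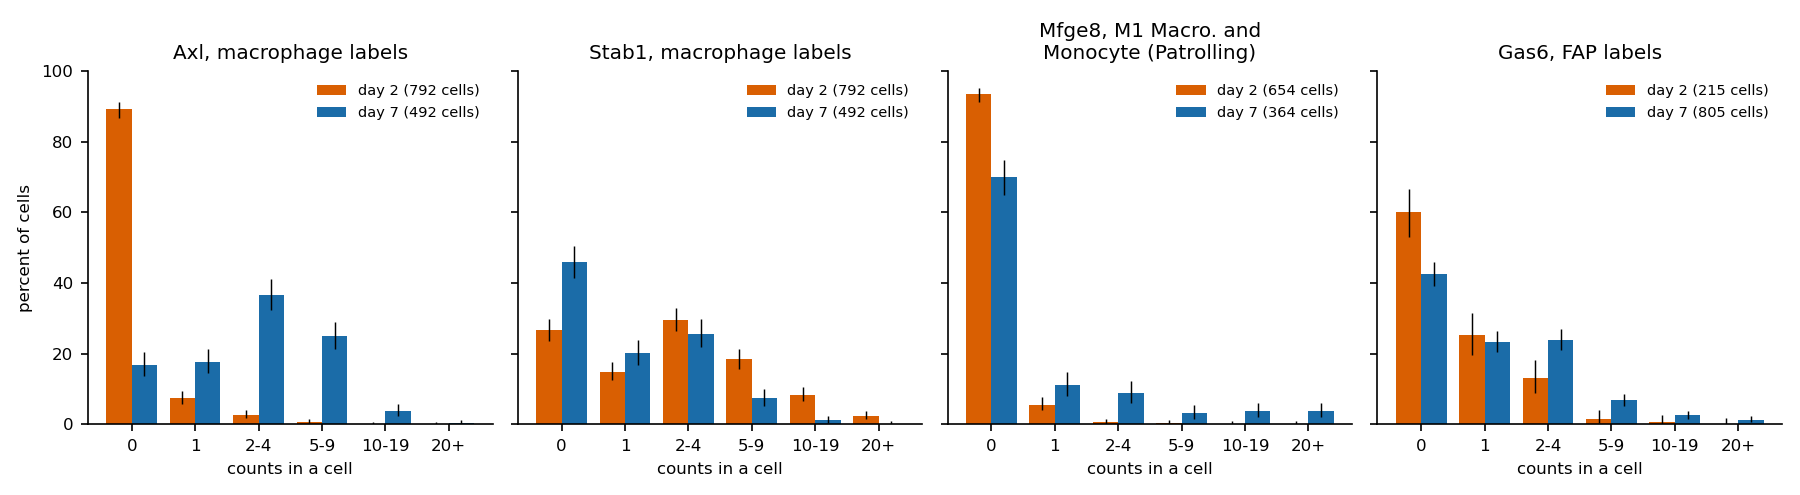
Share of cells, in percent with 95% intervals, by the number of counts of a gene in a cell, at day 2 (orange) and day 7 (blue), for Axl and Stab1 in macrophages, Mfge8 in M1 Macro. and Patrolling monocytes, and Gas6 in fibro-adipogenic progenitors. Macrophages with no Axl count were 89.3% at day 2 and 16.9% at day 7, those with no Stab1 count 26.6% and 45.9%.

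Fibro-adipogenic progenitors (FAPs), the stromal cells that lay down matrix in injured muscle, showed the opposite order for Axl. They held 628 CPM (607 to 650) at day 2 and 329 CPM (317 to 342) at day 7, for a log2 ratio of -0.93 (-1.01 to -0.86). This lay just inside 2-fold, and went past it under another scaling (-1.08) and after thinning (-1.11). Pro-remodeling FAPs went from 583 to 301 CPM and Adipogenic FAPs from 550 to 267. Stem FAPs did not: they held 775 CPM at day 2 and 765 at day 7, for a log2 ratio of -0.02 (-0.18 to 0.14), the highest Axl level of any label at both days. Stem FAPs were 1.33-fold (1.23 to 1.44) above Pro-remodeling FAPs at day 2 and 2.54-fold (2.29 to 2.81) above them at day 7. Day 2 FAPs were few (215 cells against 805) and deep, with a median of 24329 counts against 8429. FAPs held 87.7% of all Axl counts in labelled cells at day 2 and 47.5% at day 7, while macrophages went from 3.94% to 29.3%.

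Tyro3 (chromosome 2:119797733-119818104, plus strand), the family member best known from the nervous system, had no count in macrophages. None of 792 macrophages had a count at day 2, which allows a share of cells with a count of up to 0.465%, nor any of 492 at day 7, which allows 0.747%. These limits are on detection and not on cells that make the transcript. FAPs held 28 of the 37 Tyro3 counts at day 2 and 79 of 100 at day 7. Their level was 5.45 and 9.69 CPM, a log2 ratio of 0.83 (0.19 to 1.51). Pro-remodeling FAPs were highest at day 7 with 11.04 CPM from 65 counts.

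**Figure D3:**
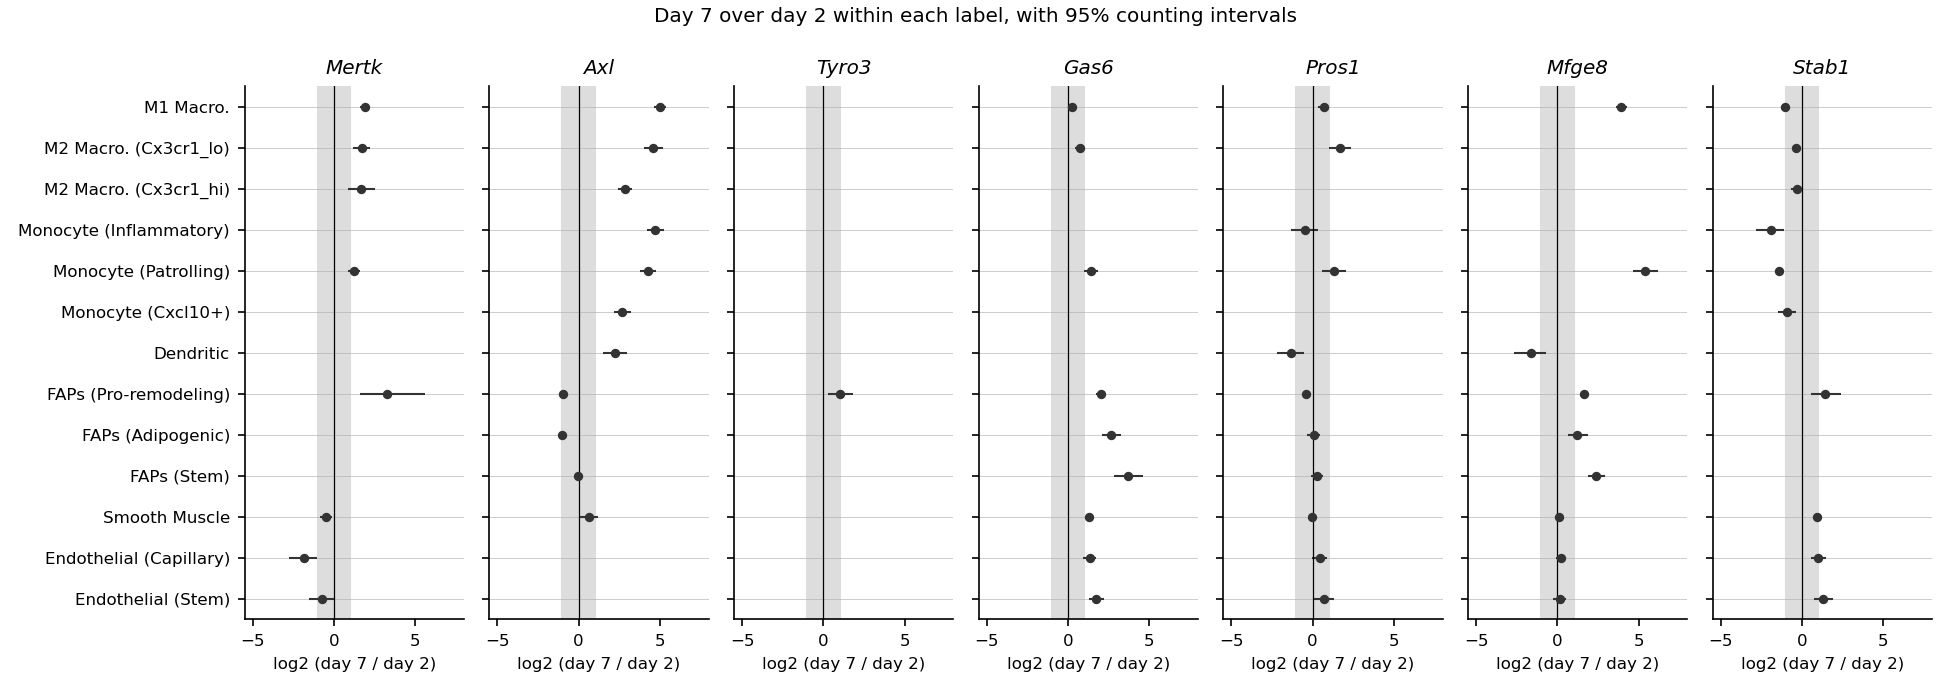
Log2 ratio of day 7 to day 2 for each gene with 50 or more counts in a label, with 95% intervals that cover counting error only, in 13 labels. The grey band is the range inside 2-fold. The monocyte and macrophage points of Axl lie between 2.67 and 5.0, those of Stab1 between -1.92 and -0.31, and the FAP points of Gas6 between 2.02 and 3.67.

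Gas6 (chromosome 8:13465374-13494490, minus strand) encodes the ligand shared by all 3 receptors. Its main place differed between the days: macrophages held 50.7% of its counts in labelled cells at day 2 and 11.5% at day 7, and FAPs 9.38% and 50.6%. FAPs were 6.77% of the labelled cells at day 2 and 25.2% at day 7, macrophages 24.9% and 15.4%. The level per FAP differed too. FAPs held 30 CPM (25.4 to 35.1) from 154 counts at day 2 and 199 CPM (189 to 209) from 1621 counts at day 7. The log2 ratio was 2.73 (2.49 to 2.98), and it was 2.24 after thinning.

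Each FAP label had more Gas6 at day 7. Stem FAPs went from 10.2 to 130 CPM, a log2 ratio of 3.67 (2.82 to 4.64). Their day 2 level rested on 13 counts in 47 cells and lay under that day's free RNA of 18.7 CPM. Pro-remodeling FAPs went from 32.8 to 133 CPM, with 2.02 (1.74 to 2.32). Adipogenic FAPs went from 73.0 CPM, on 26 counts in 30 cells, to 459 CPM, with 2.65 (2.09 to 3.28). These cells had the highest Gas6 level of any label at day 7, 1.77-fold above the next. They exceeded Pro-remodeling FAPs 2.23-fold (1.396 to 3.43) at day 2 and 3.45-fold (3.11 to 3.81) at day 7, where 7.5% and 4.34% of genes differed by more than 2-fold. The counts were concentrated: 36 of 232 Adipogenic FAPs, those with 5 or more counts, held 76.3% of this label's Gas6 at day 7. In FAPs as a whole 4 members (Gas6, Mfge8, Mertk and Stab1) were past 2-fold higher and none lower of 7, against 22.7% of 10391 genes higher and 14.4% lower. Of these, Mertk rested on 4 and 65 counts and Stab1 on 21 and 82, both at levels under the free RNA at day 7, and neither was higher in thinned Pro-remodeling FAPs (log2 ratios of -0.26 and -0.11). Mertk also had under 50 counts once cells with a short list of another lineage's markers were left out. The summed macrophage markers in FAPs were 553 CPM at day 2 and 1144 at day 7. They were higher at day 7 within the macrophages too, and their part in these 2 results was not tested.

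In macrophages Gas6 was highest in the Cx3cr1_lo label. It held 157 CPM at day 2, the highest of any label and 2.00-fold above Endothelial (Stem), and 258 CPM at day 7. M1 macrophages held 49.6 and 59.3 CPM. The Cx3cr1_lo level was 3.16-fold (2.75 to 3.64) the M1 level at day 2 and 4.35-fold (3.49 to 5.41) at day 7, where 3.65% and 8.19% of genes differed by more than 2-fold. At day 7 it was 15.1-fold (9.502 to 25.1) the Cx3cr1_hi level. Over all macrophages the 2 days were alike in level, 77.1 and 71.5 CPM, a log2 ratio of -0.11 (-0.29 to 0.07), although the ratio was 0.72 (0.44 to 0.98) within Cx3cr1_lo cells and 0.26 within M1 cells. The Cx3cr1_lo label held 242 cells at day 2 and 105 at day 7, the Cx3cr1_hi label 82 and 159. The sign of the macrophage value turned under another scaling (0.03), as a mean over cells (0.55) and after thinning (0.84), so no direction is given for it. At day 2, 63 of 792 macrophages held 66.8% of the Gas6 counts, and the genes that led in those cells were Cd163, Fcgrt, Npl and Cbr2. Of the 63, 35 carried the Cx3cr1_lo label and 28 the M1 label, and Cd163, Npl and Cbr2 also led the Cx3cr1_lo label. CD163 is the haemoglobin scavenger receptor of tissue macrophages.

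Vascular labels also had more Gas6 at day 7. Endothelial cells went from 71.7 to 213 CPM, a log2 ratio of 1.57 (1.30 to 1.84), and smooth muscle cells from 63.0 to 157, with 1.32 (1.11 to 1.53). Without cells holding 5 or more counts of another lineage the endothelial ratio was 0.88, on 46 and 13 cells and under 50 counts. With short marker lists it was 1.47, while smooth muscle, with 14 and 18 of 304 and 232 cells left, was at 0.28. In the endothelial labels 2 members were past 2-fold higher (Gas6 and Stab1) and 1 lower (Mertk) of 5, against 12.1% and 9.46% of 7657 genes. In smooth muscle Gas6 was the 1 member of 6 past 2-fold, against 11.2% of genes higher and 7.34% lower. Free RNA of Gas6 was also higher at day 7, at 71.3 CPM, a level that the FAP, endothelial, smooth muscle and Cx3cr1_lo values exceeded. Among monocytes, Patrolling cells went from 26.3 to 69.8 CPM, close to the free RNA of each day.

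Pros1 (chromosome 16:62854307-62929346, plus strand), which encodes protein S, an anticoagulant as well as a receptor ligand, stayed within 2-fold in the FAP, macrophage, endothelial and smooth muscle classes. FAPs held 205 CPM at day 2 and 175 at day 7, for a log2 ratio of -0.22 (-0.34 to -0.11), and were its main holders, with 48.9% and 64.1% of counts. The 3 FAP labels took the first 3 places in the order at both days, Pro-remodeling FAPs with 231 CPM first at day 2 and Adipogenic FAPs with 199 CPM at day 7. Macrophages held 21.3 and 37.7 CPM, both under the free RNA of their day. Of the macrophage labels Cx3cr1_lo had the largest ratio, with 16.5 and 53.7 CPM and a log2 ratio of 1.70 (1.01 to 2.37). Inflammatory monocytes exceeded Patrolling monocytes 3.68-fold (2.42 to 5.73) at day 2 and 1.08-fold at day 7. Dendritic cells held less at day 7, 15.4 against 39.1 CPM, a log2 ratio of -1.35 (-2.22 to -0.56). They also held less Mfge8 (32.1 and 10.6 CPM, although the log2 ratio turned to 0.43 after thinning), and with Axl all 3 members counted there lay past 2-fold, against 8.84% of 5905 genes higher and 8.42% lower. Except for Mfge8 and Pros1 at day 2 these dendritic levels lay under the free RNA of their day, which for Axl was itself higher at day 7.

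**Figure D4:**
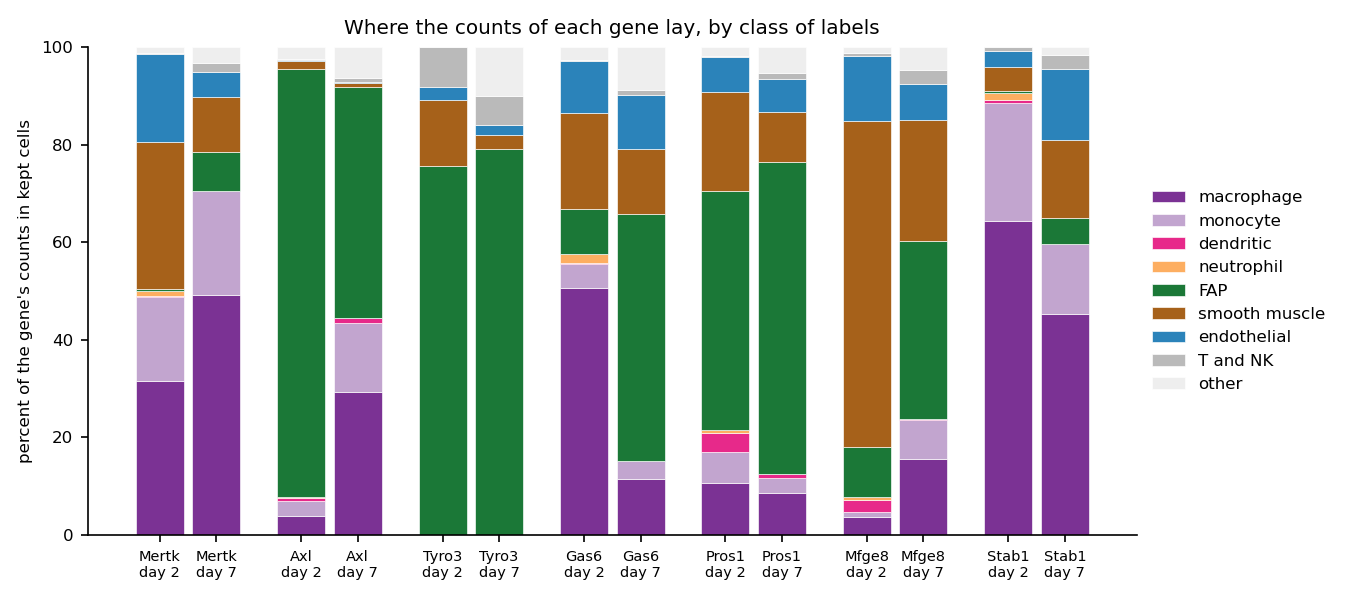
Percent of each gene's counts in labelled cells that fell in each cell class, at day 2 and day 7. Macrophages held 50.7% of Gas6 at day 2 and 11.5% at day 7, FAPs 9.38% and 50.6%, and smooth muscle held 66.7% of Mfge8 at day 2 and 24.9% at day 7.

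Mfge8 (chromosome 7:79133768-79149060, minus strand) was highest in smooth muscle cells at both days. The level there was 372 CPM at day 2 and 396 at day 7, for a log2 ratio of 0.09, and 2.33-fold above the next label, Endothelial (Stem), at day 2. FAPs went from 57.1 CPM (50.7 to 64.0) to 192 CPM (183 to 202), a log2 ratio of 1.75 (1.57 to 1.94). Stem FAPs had the largest FAP ratio, 2.41 (1.88 to 2.95), from 33.9 to 179 CPM.

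In macrophages Mfge8 went from 9.54 CPM (7.79 to 11.6) and 103 counts to 130 CPM and 670 counts, a log2 ratio of 3.77 (3.47 to 4.08). The ratio was 2.92 as a mean over cells, 2.97 after thinning and, on under 50 counts, 2.06 without cells holding 5 or more counts of another lineage. These counts lay in few labels. M1 macrophages held 12.4 and 191 CPM, a log2 ratio of 3.94 (3.61 to 4.29), and Patrolling monocytes 5.76 and 238 CPM, with 5.37 (4.65 to 6.19). At day 7 the M1 level was 7.88-fold (4.66 to 14.5) the Cx3cr1_lo level and 13.01-fold (8.17 to 22.1) the Cx3cr1_hi level, where 8.19% and 3.63% of genes differed by more than 2-fold. Patrolling monocytes had 341 counts and Inflammatory monocytes 2 at day 7. The day 2 level in M1 cells lay below the free RNA of 29.1 CPM and the day 7 level above its 90.6 CPM.

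These counts also lay in few cells. Of the 364 M1 and Patrolling cells at day 7, 37 cells with 5 or more counts held 844 of 979 Mfge8 counts, or 86.2%. At day 2, 4 of 654 such cells held 57 of 100. In M1 cells alone, 24 of 228 cells held 572 of 638 counts at day 7, and Mt3, Mmp12 and Ctsk led there too. The genes that led in the 37 cells against the other M1 and Patrolling cells were Mt3, at 152 against 1.54 CPM, F7, at 123 against 19.98, Ctsk, at 208 against 35.1, and Mmp12, at 1351 against 245. Ctsk encodes the collagen-degrading protease cathepsin K and Mmp12 the macrophage elastase. The summed FAP markers were 637 CPM in the 37 cells and 618 CPM in the others, and the smooth muscle markers 17.3 and 19.98 CPM, while the endothelial markers were 360 and 147 CPM. The 37 cells were deep, with a median of 21359 counts against 10932.

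Stab1 (chromosome 14:31139013-31168641, minus strand) encodes a receptor of tissue macrophages and sinusoidal endothelium. Macrophages held 288 CPM (278 to 299) from 3112 counts at day 2 and 136 CPM (126 to 146) from 698 counts at day 7, for a log2 ratio of -1.09 (-1.21 to -0.97). Monocytes held 206 and 93.9 CPM, a log2 ratio of -1.14 (-1.35 to -0.93). Both stayed lower but came inside 2-fold under another scaling (-0.95 and -0.99), as a mean over cells (-0.62 and -0.89) and after thinning (-0.53 and -0.87). They were -0.24 and -0.31 without cells holding 5 or more counts of another lineage, and monocytes were at -0.81 without the Patrolling label. In thinned cells, Stab1 was found in 32.3% of macrophages at day 2 and 25.4% at day 7, against 2.01% of T and NK cells at day 7.

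The labels differed in this. Inflammatory monocytes had the lowest ratio, -1.92 (-2.85 to -1.11), from 88.1 to 23.4 CPM, the latter on 13 counts and under that day's free RNA. Cxcl10+ monocytes were at -0.90 and Cx3cr1_hi macrophages at -0.31. M1 macrophages went from 237 to 113 CPM, a log2 ratio of -1.07 (-1.23 to -0.90), and Patrolling monocytes from 313 to 117, with -1.43 (-1.67 to -1.19). Cx3cr1_lo macrophages had the most Stab1 of any label at both days, 444 and 341 CPM, with a log2 ratio of -0.38 (-0.60 to -0.16). They exceeded M1 macrophages 1.87-fold (1.74 to 2.02) at day 2 and 3.01-fold (2.52 to 3.59) at day 7. Thus the label richest in Stab1 was also the myeloid label richest in Gas6. The shares of cells that follow pool all macrophage labels and so carry that label difference. They were not taken within a label. At day 2, Gas6 was found in 16.9% (12.5 to 22.03) of thinned macrophages with a Stab1 count and 5.23% (3.51 to 7.48) of those without, and at day 7 in 24.2% (16.96 to 32.7) and 12.1% (8.92 to 15.9). The 229 day 2 macrophages with 5 or more Stab1 counts led with Ccl8, Npl, Cd163 and Gas6. Of these cells 111 carried the Cx3cr1_lo label and 113 the M1 label, and Ccl8, Npl and Cd163 also led the Cx3cr1_lo label.

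Endothelial cells again ran opposite to the myeloid cells, with 64.3 CPM at day 2 and 135 at day 7, for a log2 ratio of 1.07 (0.77 to 1.38). Capillary cells went from 55.8 to 110 CPM and Stem cells from 57.1 to 142. The macrophage markers in endothelial labels were also higher at day 7, at 2021 against 553 CPM. They were higher at day 7 within the macrophages too, and their part in this value was not tested. The ratio was 0.90 and thus inside 2-fold once cells with 5 or more counts of a short list of another lineage's markers were left out. With the full lists it was 0.47, on 46 and 13 cells and under 50 counts. Free RNA of Stab1 moved the other way, from 76.0 to 45.7 CPM, and the endothelial level of day 2 lay below it. T and NK cells had 34 Stab1 counts at day 2, and 29 of them lay in 1 cell of the NK label, whose macrophage markers stood at 33685 CPM with 16 of 19 detected. The other 20 NK cells had none. Stab1 was the 1 member of 3 past 2-fold in these labels (lower, against 11.1% of 6117 genes higher and 6.0% lower), but with that cell behind it no difference between the days is read there.

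The pathways around these genes were read from lists of 120 genes in 9 groups, all present in the matrices. In macrophages 24 were past 2-fold higher and 15 lower of 95 with 50 or more counts, with a median log2 ratio of 0.04 against -0.14 over all genes. In FAPs 25 were higher and 6 lower of 83, with a median of 0.34 against 0.15 over all genes. Those past 2-fold were 39 of 95 in macrophages, where 28.3% of all genes lay past it, and 31 of 83 in FAPs, where 37.1% did. Nothing particular to the lists is drawn from these counts.

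Digestion and lipid sensing after uptake had 8 of 20 genes past 2-fold higher in macrophages and none lower, with a median of 0.64, where 14.3% of all genes were higher. Apoe, the lipid-carrying apolipoprotein, stood at 2392 CPM at day 2 and 45359 at day 7, Abcg1, a cholesterol exporter, at 18.9 and 225, and Cybb, the phagocyte oxidase subunit, at 230 and 1025. Of other phosphatidylserine and engulfment receptors 5 were higher and 4 lower of 14: the integrin subunit Itgax went from 10.2 to 313 CPM and Cd300a from 74.5 to 346, while the scavenger receptor Msr1 went from 433 to 34.98. Of other bridging molecules and opsonins 3 were higher and 2 lower of 9. The complement genes C1qa and C1qc were higher, with log2 ratios of 2.82 and 2.74, and Thbs1, the thrombospondin that links dying cells to CD36 and integrins, went from 2442 to 73.5 CPM.

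The remaining macrophage lists held genes of both directions, to be read beside the 14.3% of all genes higher and 13.9% lower. In the engulfment machinery 2 were higher and 2 lower of 17, with the lipid exporter Abca1 at 58.3 and 222 CPM and the exchange factor Vav3 at 62.9 and 26.2. Of find-me signals and receptors 2 were higher and 2 lower of 8, among them Cx3cr1, the fractalkine receptor, with a log2 ratio of 5.19, and Sphk1, which makes sphingosine phosphate, with -2.72. Of do-not-eat-me genes 1 was higher, Cd22, and 1 lower, Cd24a, of 6. Of phosphatidylserine exposure genes 1 was higher, the scramblase gene Plscr1, and 1 lower, the flippase gene Atp11a, of 7. The vitamin K cycle, which makes GAS6 and protein S able to bind lipid, had Vkorc1 higher (1.07) and Calu and Vkorc1l1 lower (-1.13 and -1.04), all 3 of its genes with 50 counts. Of TAM shedding and signalling genes 1 was higher and 1 lower of 11, the lower one Adam9 (-1.13).

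In FAPs, where 22.7% of all genes were 2-fold higher, 2 of the 4 vitamin K cycle genes with 50 counts were higher. Ggcx, the carboxylase itself, went from 8.57 to 37.1 CPM, a log2 ratio of 2.11, and Vkorc1, which recycles the vitamin, from 58.0 to 199.6, with 1.78. TAM shedding and signalling had 4 higher of 13, among them Pik3r1 (1.396) and the sheddase Adam17, at 33.1 and 76.3 CPM. The engulfment machinery had 4 higher of 15, with Abca1 at a log2 ratio of 3.54 and the adaptor gene Gulp1 at 1.72, and digestion 6 of 18, with Abcg1 at 3.49. None of these 4 lists had a gene past 2-fold lower, where 14.4% of all genes were. Of other phosphatidylserine and engulfment receptors 2 were higher and 2 lower of 6. The higher ones were the integrin subunits Itgb3 and Itgb5, partners of the receptors that MFG-E8 binds, with log2 ratios of 1.99 and 1.71. Bridging molecules and opsonins had 4 higher and 2 lower of 11, and find-me genes 1 higher and 2 lower of 4. Do-not-eat-me genes had 1 higher and 0 lower of 4, and phosphatidylserine exposure genes 1 higher and 0 lower of 8. The opsonin Ptx3 was the FAP gene of the lists with the lowest ratio, from 1254 to 67.1 CPM, a log2 ratio of -4.22. C1qa and C1qb stood at 16.8 and 24.0 CPM in FAPs at day 7. Macrophages held both at far higher levels, and the source of these counts in FAPs was not tested.

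**Figure D5:**
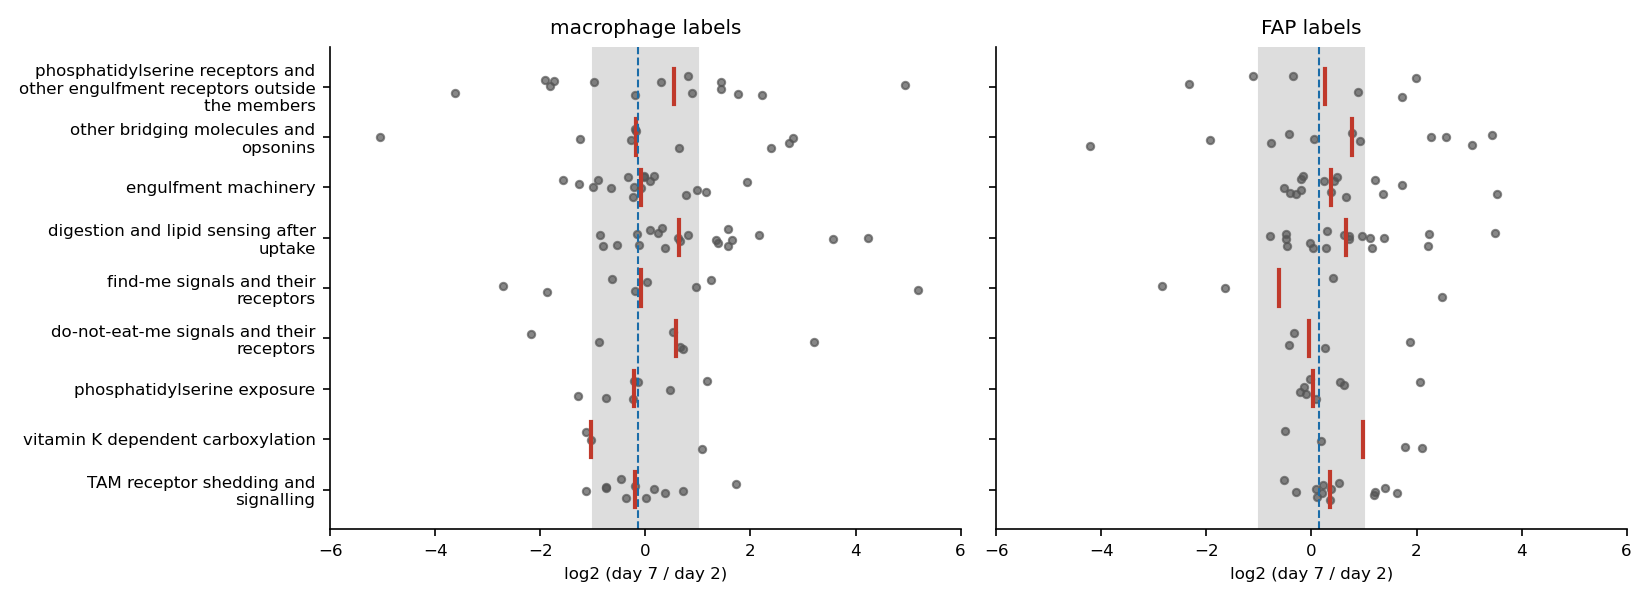
Log2 ratio of day 7 to day 2 for the genes of 9 pathway lists with 50 or more counts, in macrophages and in FAPs. Each point is a gene, red bars are list medians, the dashed line is the median over all genes (-0.14 in macrophages, 0.15 in FAPs) and the grey band is the range inside 2-fold. The digestion list has 8 of 20 points above the band in macrophages and 6 of 18 in FAPs, with none below it.

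Over 35 combinations of label and day, which share 2 libraries and their depth, the 5020 genes with 100 CPM in at least 1 of them were ranked by the Pearson correlation of log2(CPM + 10) with each member. Mertk was most like Gna12 (0.89), Cttnbp2nl (0.81) and Fblim1 (0.79). Axl was most like Cpq (0.85), Igsf8 (0.84) and Cd302 (0.83). Gas6 was most like Lrp6 (0.83), Plod1 (0.77) and Laptm4a (0.73), and Pros1 was most like Fbln2 (0.87). The nearest to Mfge8 were Tns2, Tgfb1i1 and Meox2, at 0.81 each, and the nearest to Stab1 was Mpp1 (0.86). Tyro3 was nearest to Rcn1 (0.87), on very few counts. Among the members themselves Mertk and Stab1 had 0.69 and Gas6 and Mfge8 0.66, while Mertk and Axl had 0.00.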

How the data were processed

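Single-cell 3′ RNA libraries from injured tibialis anterior muscle were used, 1 at day 2 and 1 at day 7. The authors deposited whole-number transcript counts per gene and barcode (Cell Ranger 3.0.1 per the file headers, 3.1.0 per the labels, mm10), estimated counts after SoupX removal of ambient RNA, and a cell annotation. The study's methods removed doublets before annotation with DoubletFinder, and no doublet caller was run here. The deposited counts gave all levels. The estimated counts from the authors served to keep cells, with 750 or more genes, 1000 or more transcripts and at most 30% mitochondrial counts among the 3537 and 3416 annotated cells, and as an alternative.

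Counts were summed per label with Python 3.11.15, numpy 2.4.6, scipy 1.17.1 and pandas 2.3.3, and plotted with matplotlib 3.10.9. With 1 library per group no test was made. Exact Poisson intervals were used for levels, the Clopper-Pearson method for shares, and the conditional binomial for ratios, each at 95% and for counting error only. A ratio counted as past 2-fold from 50 counts over both libraries, with counts under 3 taken as 3, and labels needed 30 cells. The free RNA was read from 704377 and 557014 barcodes with 1 to 100 counts. The leading genes of a label are the 10 with the largest fold against the library's other cells.

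The named genes were the 7 members, up to 3 genes of each pathway list past 2-fold with 100 or more counts by size of ratio, and the 3 genes most like each member, of which some are left out of the text. Of the named list genes, 1 is not reported here. The genes that lead in cells with 5 or more counts, and the monocyte labels set against each other, were looked at after the first values were known. The members and lists were chosen with earlier results of these data known. Upstream sequences came from RefSeq, and all 7 members matched. Alternatives changed the input, cells, scaling, depth, count minimum, fold and labels, and the scripts were tested on simulated data.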

Additional observations from a re-analysis of the deposited data

Results flagged for a closer look

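The day 7 to day 2 ratio of Mertk was opposite in sign in macrophages (1.74 on the log2 scale) and in endothelial labels (-1.27), a gap of 3.01. The ratio of Stab1 was opposite in endothelial labels (1.07) and monocytes (-1.14), a gap of 2.21. With 1 library per day neither difference was tested. Counts of the 7 genes also lay in filtered barcodes outside the kept labelled cells, which the comparisons did not use. These were 3057 of 19043 counts at day 2, or 16.1% (15.5 to 16.6), in 1658 of 4836 barcodes, and 2196 of 20035 at day 7, or 10.96% (10.5 to 11.4), in 1693 of 4889 barcodes.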

How the results depend on the processing

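No paired analysis was possible because each time point had 1 library. Of 93 member ratios, all 93 stayed within their counting interval with SoupX values (2 moved by over 1.5 times), all annotated cells and stricter cells (4 changed sign), 84 under median-of-ratios scaling, 78 as a mean over cells and 49 after thinning to 2000 counts. Median-of-ratios moved the zero by -0.14 in macrophages, -0.15 in monocytes and 0.15 in FAPs, and gave -0.95 for Stab1 in macrophages and -1.08 for Axl in FAPs. As a mean over cells Mfge8 and Stab1 in macrophages were 2.92 and -0.62, and Mfge8 in FAPs 1.57. After thinning, 3 members were past 2-fold in monocytes. Thinned Mfge8 and Stab1 in macrophages were 2.97 and -0.53, and thinned Axl, Gas6 and Mfge8 in FAPs -1.11, 2.24 and 2.42. After thinning 10 ratios changed sign, among them 4 that had been past 2-fold: Mfge8 in dendritic cells (0.43), Mertk in FAPs (-0.0074) and, in Pro-remodeling FAPs, Mertk (-0.26) and Stab1 (-0.11). Requiring 200 counts left 2 members and 17 list genes past 2-fold in FAPs, against 4 and 31. At 1.5-fold, 62 list genes in macrophages were past it, against 39.

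Without cells holding 5 or more counts of another lineage's markers, 330 and 119 macrophages, 255 and 75 monocytes, 9 and 3 FAPs and 46 and 13 endothelial cells were left, and 19 of 57 ratios stayed, 37 moved (31 of the 57 by over 1.5 times) and 8 changed sign. Members past 2-fold were then 2, 1, 0 and 0, against 4, 5, 4 and 3, and no member reached 50 counts in the last 2 classes. Axl, Mfge8 and Stab1 in macrophages were 5.26, 2.06 and -0.24, and Mertk in endothelial labels turned to 0.47. Another 3 alternatives were chosen after seeing the data. With that filter on short marker lists, Mfge8 in macrophages was 4.12 and Axl in FAPs -0.85, Stab1 in endothelial labels came inside 2-fold (0.90) and Mertk in FAPs had under 50 counts. It left 14 and 18 smooth muscle cells, where Gas6 was 0.28 and Mertk 1.28. Without Cx3cr1_hi cells Axl in macrophages was 4.94. Without Patrolling cells 2 members were past 2-fold in monocytes, against 5, and 1 of 6 ratios stayed. The cause of these moves was not tested, beyond the fewer cells and counts. With 1 library per day the spread between animals is unknown. Levels under the free RNA of their day also limit what several values show. At day 2 they include Axl and Mfge8 in macrophages and monocytes, and Gas6 in Stem FAPs. At both days they include Pros1 in macrophages and monocytes, and Gas6 in monocytes. At day 7 they include Mfge8 in Cx3cr1_lo, Cx3cr1_hi and dendritic cells.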
